A study of Mus musculus with 9 samples.

Results

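Keratins are the intermediate filament proteins of epithelial cells, and 10 of their genes were followed here: Krt7, Krt8, Krt18, Krt19, Krt5, Krt14, Krt15, Krt16, Krt17 and Krt80. They were found in the count table by the Entrez identifiers that map to these symbols, and all 10 were among its 24594 genes. Of these, 9 had enough counts to be tested, among 13928 genes tested in all, and Krt19 did not. Keratin filaments assemble from pairs of a type I and a type II protein. Krt8 (type II) and Krt18 (type I) are the primary pair of simple and luminal epithelium, with Krt7 (type II) and Krt19 (type I) beside them in ductal epithelium. Krt5 (type II) and Krt14 (type I) pair in basal and myoepithelial cells of the mammary gland and in the basal layer of the epidermis, and Krt16 and Krt17, with the Krt6 genes, are known for their induction in injured or stressed epidermis.

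The libraries were made from polyA-selected RNA of BG2 cells, a line grown out of an endpoint mammary tumour of a mouse of the MMTV-NeuIresCre strain. In this strain the MMTV promoter, active mainly in mammary epithelium, drives the oncogene Neu together with Cre, and all 3 groups share this background. The control was a bulk population of wild-type cells, whose library names hold NTC. Clone 1 and clone 2 were 2 single clones grown from a population cut by CRISPR guides against exon 3 of the transcription factor gene Sox10, so each knockout group is 1 clone compared with a mixed population. Each group had 3 technical replicates, so p-values measure the spread between these libraries and not between cultures, mice or further clones.

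Total counts ran from 65805296 to 83282841 per library. Sox10 had 16660, 21437 and 26038 counts in the control libraries and at most 6 in any clone library. The 3 libraries numbered replicate 1 deviated together from their group means, and values without them are given where a call changed. Of 7 general markers of mammary epithelium, which include Krt8 and Krt18, all 7 were lower in both clones, as were 29.4% of all 13928 tested genes. Cdh1 (E-cadherin) had 341 ± 25.4 CPM (mean ± SD, n = 3) in the control, 43.1 ± 1.83 in clone 1 and 16.2 ± 1.49 in clone 2. Epcam, the epithelial adhesion gene, had 660 ± 10.9 CPM in wild-type cells, 7 counts in all of clone 1 and 0 counts in clone 2, so this defining marker of the labelled cell type was at or near 0 in both clones. CPM are counts scaled to library size with TMM factors. Summed fibroblast markers ran from 9.16 to 10.6 CPM in wild-type cells, 177 to 180 in clone 1 and 107 to 116 in clone 2, with 4 of the 7 genes tested and Lum and Thy1 at or under 3 counts in every group. Pdgfra, a growth factor receptor gene, made up most of this sum in the control and nearly all of it in the clones. It had 7.83 ± 0.392, 172 ± 2.02 and 107 ± 4.13 CPM, whereas the collagen gene Col1a1 had 1.45 ± 0.219, 2.95 ± 0.415 and 2.77 ± 0.0440 CPM. Another collagen gene, Col3a1, had 0 counts in the control, 1.04 ± 0.182 CPM in clone 1 and 0.025 ± 0.0256 in clone 2. Summed immune markers ran from 0.371 to 0.811 CPM in wild-type cells, 0.381 to 0.587 in clone 1 and 5.80 to 7.63 in clone 2, with 2 of 6 tested and Cd3e and Adgre1 at or under 3 counts in every group. In clone 2 this sum was mostly Lyz2 (lysozyme), at 6.36 ± 0.954 CPM against 0.0277 ± 0.0271 in wild-type cells. Summed adipocyte markers, of which Fabp4 alone was tested, ran from 0.554 to 0.729, 3.44 to 4.37 and 7.80 to 9.79 CPM in the 3 groups, with Adipoq and Plin1 at or under 3 counts in both clones. Summed endothelial markers reached 0.108 CPM in wild-type cells, 18.1 in clone 1 and 1.09 in clone 2, with 2 of 5 tested. In clone 1 this sum was nearly all Kdr, a growth factor receptor gene, at 16.2 ± 0.947 CPM against 0.0186 ± 0.0162 in wild-type cells. Vwf, the other tested gene of this list, had 0 counts in the control. Its means were 0.628 ± 0.229 CPM in clone 1 and 0.314 ± 0.183 in clone 2. Kdr and Vwf were called higher in both clones, as were 28.7% of all tested genes. Pecam1, Cdh5 and Tek had means of 0.027, 0.0191 and 0.00955 CPM in clone 1. Pdgfra, Col1a1, Col3a1, Lyz2, Fabp4, Kdr, Vwf, Pecam1, Cdh5 and Tek were picked after their values were seen. The part of these other markers in the keratin results was not tested.

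The promoters of the keratin genes that lost transcripts together are shown first. RefSeq (GRCm38.p6) gave a window around the start, from 250 bases before it to 50 after, for 5 of the 10 genes: Krt7, Krt8, Krt18, Krt5 and Krt14. The bases before the first exon of a coding GENCODE transcript are printed for Krt7, Krt8 and Krt18, the most abundant keratin genes of the control. The Krt7 stretch is chr15:101412153-101412401 on the plus strand. It ends 1 base before the start of the longest coding transcript, lies in an intron of another coding transcript of Krt7, and is overlapped by the antisense gene Gm671. The Krt8 stretch is chr15:102004483-102004592 on the minus strand, and the Krt18 stretch is chr15:102027966-102028179 on the plus strand. Capitals mark matches to the motifs searched on both strands, which were GCCNNNGGC (AP-2), GGGCGG (Sp and Klf factors), ACAAAG (Sox factors), ACAATG (Sox factors), TGANTCA (AP-1) and TATAAA (core promoter box).
Krt7: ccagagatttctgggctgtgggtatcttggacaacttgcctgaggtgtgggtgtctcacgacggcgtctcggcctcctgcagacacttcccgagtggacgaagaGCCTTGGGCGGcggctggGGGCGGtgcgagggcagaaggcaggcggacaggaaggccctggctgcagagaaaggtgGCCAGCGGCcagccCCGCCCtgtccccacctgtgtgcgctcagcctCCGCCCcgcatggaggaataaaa
Krt8: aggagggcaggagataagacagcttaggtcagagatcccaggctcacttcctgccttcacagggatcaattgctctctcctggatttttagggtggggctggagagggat
Krt18: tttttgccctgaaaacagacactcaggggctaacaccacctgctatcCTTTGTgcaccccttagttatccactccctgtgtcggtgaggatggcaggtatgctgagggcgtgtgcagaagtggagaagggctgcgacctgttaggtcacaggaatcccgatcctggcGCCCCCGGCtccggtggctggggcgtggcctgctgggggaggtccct
A match is a description of letters and not a bound site.

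The Krt7 stretch held 2 AP-2 matches and 4 Sp and Klf matches, the first AP-2 match running into an Sp and Klf match. AP-2 matches were in 16.6% and Sp and Klf matches in 35.7% of all 32851 promoter windows, which are the full windows and longer than the printed stretches; the full windows of Krt7 and Krt18 held no match to any of the motifs beyond those in the stretches. The Krt18 stretch held 1 AP-2 match and 1 match to the Sox motif ACAAAG, written CTTTGT on the strand shown, which 18.7% of windows held. The printed Krt8 stretch held no match, and its full window held TATAAA, found in 13.6% of windows, only inside the first exon of its GENCODE transcript. The AP-1 motif (7.81% of windows) and the Sox motif ACAATG (12.6%) were in none of the 5 keratin windows. The Krt14 window lies inside its coding transcript, so its letters are not printed. The start it was built around is 1518 bases from the start of that transcript. No match in these windows says only that the letters are not there.

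In the control, the transcripts of the 10 genes were nearly all those of Krt7, Krt8 and Krt18, and in both clones Krt7 transcripts were nearly gone. Summed over the 10 genes, the level was 8602 ± 755 CPM in wild-type cells, 1205 ± 78.3 in clone 1 and 1609 ± 98.3 in clone 2, and the libraries of the 3 groups did not overlap. Against the control, 4 of the 9 tested genes fell and 5 rose in clone 1, where 76.5% of all tested genes differed (38.6% lower and 37.9% higher). In clone 2, 5 fell and 3 rose, where 74.4% of all tested genes differed (37.1% lower and 37.3% higher). In both clones, 7 of the 9 changed in the same direction, as did 58.1% of all tested genes. Of these, Krt7, Krt8, Krt18 and Krt80 fell, beside 29.4% of all tested genes, and Krt14, Krt16 and Krt17 rose, beside 28.7%. Krt15 rose in clone 1 and fell in clone 2, a pattern of opposite calls found in 4.79% of tested genes. Between the clones, where 57.6% of all tested genes differed (30.1% higher and 27.5% lower in clone 2), 4 keratin genes (Krt7, Krt8, Krt18 and Krt14) were higher and 3 (Krt15, Krt16 and Krt80) were lower in clone 2. With so many genes called in each comparison, a call alone does not set a keratin gene apart. The median absolute log2 fold change of the 9 genes was 1.96 in clone 1 and 2.47 in clone 2, beside 0.62 and 0.58 over all tested genes. The clone 1 median is the value of Krt17, which had only 6 counts in the control and 23 in clone 1. The genes were chosen with earlier results of these data known, and the difference in medians was not tested. The comparisons of the 2 clones with the control share the control libraries. In these bulk samples, fewer cells of a type and less RNA per cell cannot be told apart.

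**Figure D1:**
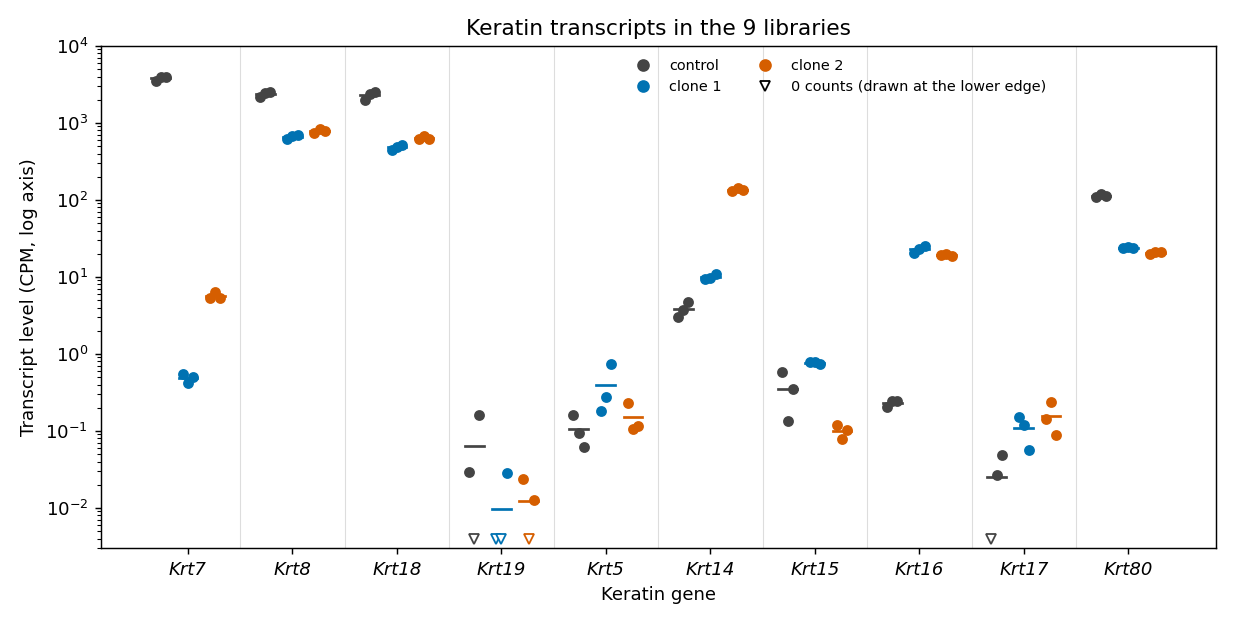
Transcript level of each keratin gene in each of the 9 libraries, in CPM on a log axis, with 1 point per library, a bar at each group mean and open triangles for libraries at 0 counts. Krt7 goes from 3786 CPM in wild-type cells to 0.489 in clone 1 and 5.68 in clone 2, Krt14 and Krt16 are higher in both clones, and Krt19, Krt5, Krt15 and Krt17 stay under 1 CPM in every library.

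Krt7, the type II keratin of ductal and other simple epithelia, had 3459, 3902 and 3996 CPM in the control libraries. It had 0.546, 0.420 and 0.502 CPM in the clone 1 libraries, on 32 to 36 counts each, and 5.36, 6.29 and 5.39 CPM in the clone 2 libraries. No library of one group reached the range of another. Its log2 fold change was -12.92 ± 0.13 (± SE) in clone 1, a level 7817-fold lower than the control (adjusted p = 6.28e-14, edgeR's quasi-likelihood test with Benjamini-Hochberg adjustment, as for all adjusted p below), and -9.38 ± 0.11 in clone 2, 670-fold lower (adjusted p = 1.38e-13). By absolute log2 fold change Krt7 ranked 62 of the 13928 tested genes in clone 1 and 255 in clone 2. The residue in clone 2 was 11.7-fold that in clone 1 (log2 fold change 3.54 ± 0.13, adjusted p = 4.51e-09). None of the 50-base windows of the Krt7 transcript occurs in a transcript of another gene. The strand setting of the authors' counting is not stated in the sources at hand, so reads of Krt7 and of its antisense neighbour Gm671 cannot be told apart where the genes overlap.

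Krt8, the type II member of the primary simple-epithelial pair, fell in both clones and was, with Krt18, one of the most abundant keratin transcripts left in them. Its levels were 2169, 2458 and 2551 CPM in wild-type cells, 625, 669 and 704 in clone 1, and 735, 842 and 784 in clone 2. All clone libraries lay below all control libraries, and the clone 2 libraries lay above those of clone 1. The log2 fold change was -1.85 ± 0.08 in clone 1 (adjusted p = 1.59e-09) and -1.60 ± 0.08 in clone 2 (adjusted p = 5.24e-09). Clone 2 stood 0.24 ± 0.08 above clone 1 on the log2 scale (adjusted p = 0.0184), a call that was lost without clone 1 replicate 1 (0.20) or clone 2 replicate 2 (0.16). Of its 50-base windows, 26.9% also occur in the pseudogene Krt8-ps, so counts of this gene depend on how shared reads were assigned.

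Krt18, the type I partner of Krt8, lies next to it on chromosome 15 among the type II genes. It had 2011, 2375 and 2528 CPM in wild-type cells, 443, 486 and 513 in clone 1, and 613, 683 and 627 in clone 2, again without overlap between groups. Its log2 fold change was -2.26 ± 0.09 in clone 1 (adjusted p = 9.92e-10) and -1.85 ± 0.09 in clone 2 (adjusted p = 5.35e-09). Clone 2 was higher than clone 1 by 0.42 ± 0.09 (adjusted p = 0.00179). Krt18 and Krt8 had the most alike patterns of the 6 keratin genes compared in pairs, with a root mean square difference of 0.17 in log2(CPM + 0.5) after each gene was centred on its mean over the 9 libraries.

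The ratio of Krt18 to Krt8 counts within a library needs no scaling between libraries. It was 0.927, 0.966 and 0.991 in wild-type cells, 0.709, 0.726 and 0.729 in clone 1, and 0.834, 0.811 and 0.800 in clone 2. No groups overlapped, with the control highest and clone 1 lowest. On the log2 scale the difference from the control was -0.414 in clone 1 and -0.238 in clone 2, and clone 2 was 0.176 above clone 1 (p = 0.10 for each, two-sided exact permutation test, the smallest p that 3 against 3 libraries allow). Per kilobase of transcript, Krt8 stood at 0.764 ± 0.0257 of Krt18 in the control, 1.02 ± 0.0157 in clone 1 and 0.901 ± 0.0190 in clone 2.

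Krt19, the short type I keratin of luminal cells, was close to absent in all groups. It had 2, 0 and 13 counts in the control libraries, 0, 0 and 2 in clone 1, and 2, 0 and 1 in clone 2. Summed over its libraries, the control was 7.09-fold higher than clone 1, with a 95% counting interval from 1.01 to 336, and 5.29-fold higher than clone 2, with an interval from 0.845 to 40.9. Nearly all of the control counts came from replicate 3, and the libraries overlapped in every comparison. Both clones were at or under the floor of 3 counts per group, so no fold is given between them. Intervals cover counting error only.

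Krt80, a type II keratin found in many epithelia, followed Krt8 and Krt18 in direction. It had 110, 119 and 113 CPM in wild-type cells, 23.7, 24.8 and 23.8 in clone 1, and 19.6, 21.3 and 20.8 in clone 2. No groups overlapped, and clone 2 was the lowest. On the log2 scale its fold change was -2.24 ± 0.06 in clone 1 (adjusted p = 2.33e-11) and -2.47 ± 0.06 in clone 2 (adjusted p = 1.19e-11), and clone 2 lay below clone 1 by -0.23 ± 0.06 (adjusted p = 0.00467). In this difference between clones Krt80 had the opposite sign to Krt7, Krt8 and Krt18. An antisense gene, Gm35853, spans Krt80 on the other strand, with the same limit as for Krt7.

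**Figure D2:**
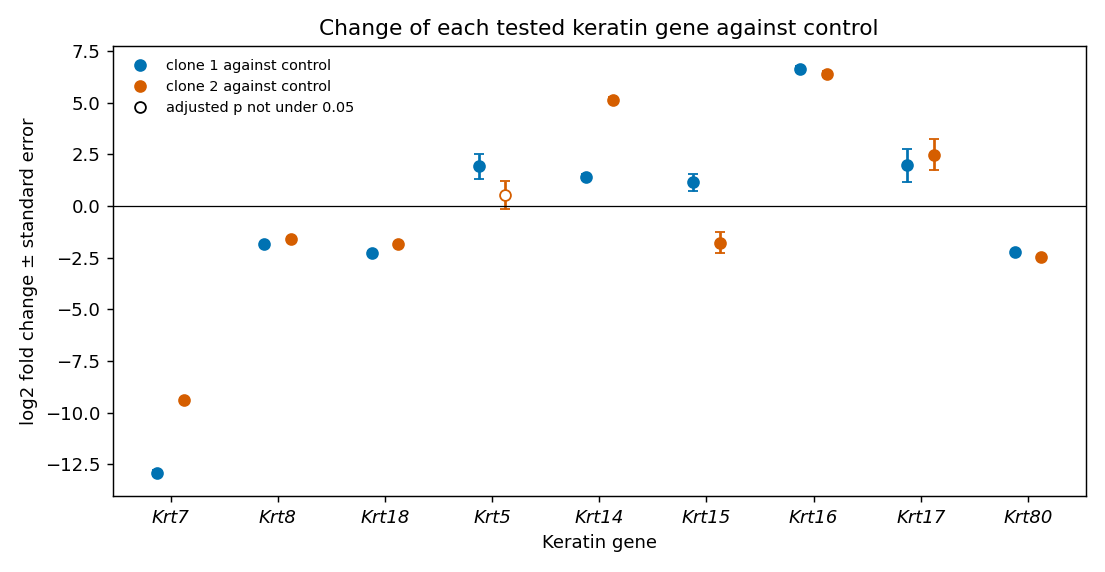
Log2 fold change of each tested keratin gene in clone 1 and in clone 2 against the control, with bars of 1 standard error and an open point where the adjusted p was not under 0.05. Krt7 lies at -12.92 and -9.38, Krt16 at 6.61 and 6.37, Krt14 at 1.40 and 5.14, and Krt15 lies above 0 in clone 1 and below 0 in clone 2.

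Among the basal keratin genes, Krt14 rose in both clones and by far more in clone 2, while its type II partner Krt5 stayed under 1 CPM in every library. Krt14 had 3.02, 3.72 and 4.67 CPM in wild-type cells, 9.45, 9.79 and 10.9 in clone 1, and 130, 142 and 133 in clone 2. All 3 groups were apart. Against the control its log2 fold change was 1.40 ± 0.13 in clone 1 (2.61-fold, adjusted p = 1.2e-06) and 5.14 ± 0.13 in clone 2 (35.1-fold, adjusted p = 2.64e-11). Clone 2 was 13.4-fold above clone 1 (log2 fold change 3.75 ± 0.12, adjusted p = 1.41e-09). Of the 50-base windows of Krt14, 14.4% occur in transcripts of other genes, 11.4% in Krt16.

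Krt5 had 11, 7 and 5 counts in the control libraries, 12, 21 and 51 in clone 1, and 19, 8 and 9 in clone 2. Clone 1 replicate 3 held most of the clone 1 counts. The log2 fold change in clone 1 was 1.92 ± 0.61 (adjusted p = 0.0134), a call lost without control replicate 3 (1.63) or clone 1 replicate 3 (1.14). Without the replicate 1 libraries of all groups it was 2.65. In clone 2 it was 0.54 ± 0.67 (adjusted p = 0.484), and its libraries overlapped those of the control. The difference between the clones was -1.38 ± 0.57 (adjusted p = 0.0571), and it passed the threshold when replicate number was taken into the fit (-1.35, adjusted p = 0.0491), without clone 1 replicate 1 (-1.72), without clone 2 replicate 1 (-1.83) and without all replicate 1 libraries (-2.16). It was smaller without clone 1 replicate 3 (-0.61, adjusted p = 0.37), and -1.22 without clone 2 replicate 2 (adjusted p = 0.145) or replicate 3 (adjusted p = 0.156). With counts halved, for read pairs that may have been counted by both reads, Krt5 was too low to test. Of the Krt5 windows, 8.52% are shared with other genes, mostly Krt6a.

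Krt15, a type I keratin of basal keratinocytes and hair follicle stem cells, had 40, 10 and 28 counts in wild-type cells, 52, 60 and 52 in clone 1, and 10, 6 and 8 in clone 2. In CPM the clone 1 libraries, at 0.745 to 0.789, lay above all control libraries, at 0.135 to 0.578, and the clone 2 libraries, at 0.0794 to 0.120, lay below them. The log2 fold change was 1.14 ± 0.40 in clone 1 (adjusted p = 0.0226) and -1.78 ± 0.50 in clone 2 (adjusted p = 0.00721). The rise in clone 1 lost its call without control replicate 2 (0.74), control replicate 3 (1.12) or clone 1 replicate 2 (1.13). Clone 2 was 7.65-fold below clone 1 (log2 fold change -2.92 ± 0.47, adjusted p = 0.000289). Thus Krt14 and Krt15, both basal type I genes of 1 cluster, differed between the clones in opposite directions.

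Of the stress keratin genes, Krt16 rose from near absence in both clones, and Krt17 stayed close to the limit of counting. Krt16, the type I partner of the Krt6 proteins, had 0.202, 0.243 and 0.247 CPM in wild-type cells, on 14 to 20 counts. It had 20.2, 23.3 and 24.9 in clone 1 and 19.3, 20.1 and 18.5 in clone 2. Its highest clone 2 library lay just under the lowest of clone 1. The log2 fold change was 6.61 ± 0.14 in clone 1 (98.6-fold, adjusted p = 4.56e-12) and 6.37 ± 0.14 in clone 2 (83.1-fold, adjusted p = 5.71e-12). Clone 2 was lower than clone 1 by -0.24 ± 0.09 (adjusted p = 0.0346), a call lost under upper quartile scaling (-0.22) and without clone 1 replicate 2 (-0.23) or 3 (-0.18) or clone 2 replicate 1 (-0.24) or 3 (-0.21). Of the Krt16 windows, 37.6% occur in other genes and 25.2% in the pseudogene Gm11597, so part of its counts depends on how shared reads were assigned.

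Krt17, a type I keratin of skin appendages and wounds, had 0, 2 and 4 counts in wild-type cells, 10, 9 and 4 in clone 1, and 12, 18 and 7 in clone 2. With 6 counts in the control the folds are imprecise and were 4.05 in clone 1 with a 95% counting interval from 1.14 to 23.4, and 5.83 in clone 2 with an interval from 1.76 to 31.6. The log2 fold change was 1.96 ± 0.81 in clone 1 (adjusted p = 0.0453) and 2.48 ± 0.76 in clone 2 (adjusted p = 0.0113). Leaving out control replicate 3 gave 2.81 and 3.33, and without all replicate 1 libraries, and with counts halved, Krt17 was too low to test. In clone 1 the call was lost in 9 alternatives, among them DESeq2 (2.03) and the fit with replicate number as a block (1.92, adjusted p = 0.06), and without clone 2 replicate 2 clone 2 missed it too (2.04). The difference between the clones missed the threshold (0.52 ± 0.60, adjusted p = 0.48), and their libraries overlapped.

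Levels can be set between genes only per length, here as CPM per kilobase of the longest coding transcript. In the control the order was Krt18 at 1604 ± 185, Krt8 at 1222 ± 102 and Krt7 at 925 ± 70.2, then Krt80 at 29.1 ± 1.22 and Krt14 at 2.24 ± 0.489, with the others at or under 0.208. Over all annotated exons of Krt7, which are longer, its value was 537. The order depends on the lengths used, which were 4094 bases for Krt7, 1958 for Krt8 and 1437 for Krt18. A shorter Krt7 transcript would raise its value and its share, and without regard to length Krt7 was the highest, at 3786 ± 287 CPM. In clone 1 the ranges of Krt8 (340 ± 20.2) and Krt18 (334 ± 24.6) overlapped. Within each clone 1 library Krt8 was slightly the higher, at 1.04, 1.01 and 1.01 of Krt18. Krt16 (14.6 ± 1.54) followed, and Krt80 (6.15 ± 0.156) and Krt14 (5.92 ± 0.454) overlapped. In clone 2 the ranges of Krt18 (446 ± 26.0) and Krt8 (402 ± 27.6) overlapped. Within each clone 2 library Krt8 was the lower, at 0.88, 0.905 and 0.917 of Krt18. Then came Krt14 (79.6 ± 3.59), Krt16 (12.3 ± 0.503), Krt80 (5.24 ± 0.228) and Krt7 (1.39 ± 0.129). In clone 1 Krt7, at 0.119 ± 0.0156, stood below Krt15 at 0.455 ± 0.0145.

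The make-up of the keratin transcripts was compared within each library, which needs no scaling between libraries. Krt8 and Krt18 together held 53.9, 54.6 and 55.2% of the counts of the 10 genes in the control libraries, 95.1, 95.1 and 95.2% in clone 1, and 88.5, 88.9 and 88.8% in clone 2 (p = 0.10 for each pair of groups, two-sided exact permutation test). The 3 groups did not overlap. Per kilobase of coding transcript the pair held 74.7 ± 0.554% in the control, 96.1 ± 0.0326% in clone 1 and 89.6 ± 0.202% in clone 2. Krt7 made up 24.5 ± 0.498% of the control transcripts by this measure, and Krt14 made up 8.41 ± 0.137% of those of clone 2, against 0.0588 ± 0.00783% in the control and 0.843 ± 0.0250% in clone 1. Krt16 held 2.07 ± 0.0841% in clone 1 and 1.30 ± 0.0610% in clone 2.

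**Figure D3:**
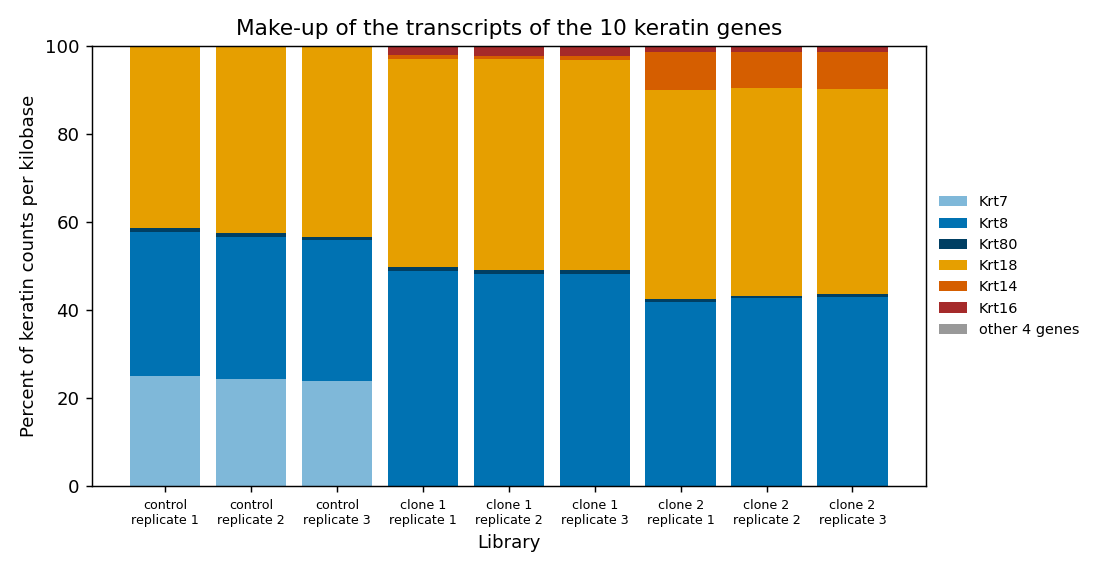
Share of each keratin gene in the counts per kilobase of the 10 genes, in percent, with 1 stacked bar per library, type II genes in blue and type I genes in yellow to red. The Krt7 segment averages 24.5% of the control bars and is too thin to see in the clones, and Krt14 takes 8.29 to 8.56% of each clone 2 bar.

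Since type I and type II proteins assemble in pairs, the summed type II transcripts were set against the summed type I transcripts of the 10 genes. This ratio of counts per kilobase was 1.36 ± 0.0521 in the control, 0.976 ± 0.0166 in clone 1 and 0.759 ± 0.0170 in clone 2, with no overlap of libraries (p = 0.10 for each pair of groups, two-sided exact permutation test). Over all annotated exons the control ratio was 1.11 ± 0.0411, and those of the clones were 0.970 ± 0.0161 and 0.758 ± 0.0170. Keratin genes beyond the 10 are left out of these ratios, among them the type II gene Krt76, at 33.8 ± 4.26 CPM in clone 1. The control ratio also depends on the Krt7 length, and a shorter Krt7 transcript would raise it. Transcript ratios do not measure proteins.

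Of the other 44 keratin genes in the table, 9 were tested. In clone 1, 6 rose and 2 fell, with a median log2 fold change of 3.15, and in clone 2, 3 rose and 3 fell, with a median of 0.87, beside 0.00 over all genes in each clone. For this and every list below, the shares of all tested genes that rose and fell were 37.9% and 38.6% in clone 1, 37.3% and 37.1% in clone 2, and 28.7% and 29.4% in both clones. Krt76, a type II keratin of suprabasal oral epithelium, had 0.257 ± 0.0743 CPM in wild-type cells, 33.8 ± 4.26 in clone 1 and 1.26 ± 0.0662 in clone 2. The 10 genes held 96.5 ± 0.206% of all keratin counts in clone 1, against 99.9 ± 0.00835% in the control and 99.5 ± 0.0217% in clone 2. The type I gene Krt23 had 2.83 ± 1.19 CPM in wild-type cells and 0 counts in both clones, a level at least 204-fold (clone 1) and at least 228-fold (clone 2) lower against a floor of 3 counts over a group. Krt87, a hair-type keratin gene, went from 380 counts to 2 in clone 1 (180-fold lower, 95% counting interval 31.9 to 7133) and 1 in clone 2 (402-fold lower, interval 35.7 to 7982). Krt6a, the usual type II partner of Krt16, was named for that role after its values were seen. It had 2 counts in the control, 103 in clone 1 (54.5-fold higher, interval 9.44 to 2213) and 95 in clone 2 (44.9-fold higher, interval 7.76 to 1829), and its means in the clones were 0.480 ± 0.153 and 0.399 ± 0.110 CPM.

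Keratin filaments are tied to desmosomes and hemidesmosomes by plakins and plakophilins. The list of 16 linker genes, all tested, also holds genes of other families. In clone 1, 5 rose and 10 fell (median log2 fold change -0.44). In clone 2, 4 rose and 9 fell (median -0.28), and 3 rose and 9 fell in both clones. Dsp, desmoplakin, which anchors keratins at desmosomes, had 208 ± 6.92 CPM in wild-type cells, 41.9 ± 1.85 in clone 1 and 0.563 ± 0.315 in clone 2. Evpl (envoplakin) changed by -2.33 ± 0.10 and -2.95 ± 0.11 on the log2 scale, and Pkp3 (plakophilin 3) by -3.83 ± 0.08 and -4.03 ± 0.08. Trim29, a tripartite motif protein, rose from 0.444 ± 0.217 CPM to 44.2 ± 2.25 and 54.5 ± 3.73 CPM.

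Of 32 genes of transcription factors linked to keratin expression, 30 were tested. In clone 1, 15 rose and 13 fell (median 0.16), and in clone 2, 10 rose and 13 fell (median -0.15), with 10 in each direction in both clones and 2 called in opposite directions. Trp63, the p63 gene of basal epithelium, had 0.0751 ± 0.0153 CPM in wild-type cells, 12.2 ± 0.458 in clone 1 and 0.786 ± 0.10 in clone 2. Krt14 thus had its highest level in clone 2 and Trp63 in clone 1. Tfap2c, which encodes an AP-2 factor, had 45.4 ± 3.81 CPM in wild-type cells and 0 counts in both clones, at least 3220-fold (clone 1) and at least 3603-fold (clone 2) lower against the floor of 3 counts over a group. Tfap2a, another AP-2 factor gene, picked after its values were seen, had 37.9 ± 3.05 CPM in wild-type cells, was higher in clone 1 (65.5 ± 2.35) and lower in clone 2 (26.9 ± 1.48), and was 1 of the 2 called in opposite directions. Elf3, an ETS factor of epithelia, went from 20.5 ± 2.47 CPM to 0.0672 ± 0.0446 in clone 1 and 4.34 ± 0.520 in clone 2. Elf5, an ETS factor of luminal progenitor and alveolar cells, went from 43.3 ± 5.94 CPM to 0.285 ± 0.156 and 0.214 ± 0.0367. Gata3, another factor gene among the luminal markers, was picked after its values were seen. It had 88.9 ± 6.06, 86.2 ± 2.32 and 85.2 ± 1.09 CPM in the 3 groups and was called in neither clone (adjusted p = 0.466 and 0.325).

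The rise of Krt16 was set beside other genes induced in wounded epidermis. Of 21 in the table, 16 were tested, and 4 rose and 10 fell in clone 1 (median -1.29) while 6 rose and 9 fell in clone 2 (median -0.53). Il1rn, the interleukin 1 receptor antagonist, rose from 14.4 ± 0.791 CPM to 694 ± 7.01 in clone 1 and 359 ± 12.8 in clone 2. Sfn, stratifin, fell from 67.5 ± 3.44 CPM to 0.460 ± 0.0544 and 0.324 ± 0.148. Tnc, tenascin C, fell from 11.1 ± 0.760 CPM to 0.0650 ± 0.0303 and 1.43 ± 0.214.

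Of 14 cornified envelope genes in the table, 9 were tested, and 6 rose and 2 fell in clone 1 (median 2.13) while 7 rose and 2 fell in clone 2 (median 2.76). Sbsn, suprabasin, had log2 fold changes of 4.93 ± 0.10 and 3.82 ± 0.10, Cdsn, corneodesmosin, 6.31 ± 0.11 and 3.43 ± 0.10, and Scel, sciellin, 5.99 ± 0.12 and 6.11 ± 0.12. Tgm1, the transglutaminase that cross-links the envelope, had log2 fold changes of -3.85 ± 0.22 and -3.98 ± 0.22. Of 16 genes of other intermediate filaments, 10 were tested, and 8 rose and 1 fell in clone 1 (median 0.97) while 6 rose and 1 fell in clone 2 (median 1.04). Vim, the vimentin gene of mesenchymal cells, had 906 ± 46.5 CPM in wild-type cells, 3283 ± 171 in clone 1 and 2750 ± 65.4 in clone 2. Nes (nestin) rose by 3.88 ± 0.08 and 3.91 ± 0.08 on the log2 scale, and the lens filament gene Bfsp1 by 3.81 ± 0.27 and 2.83 ± 0.28. Des (desmin) rose by 1.53 ± 0.54 and 5.12 ± 0.40, from only 10 counts in the control to 28 in clone 1 and 378 in clone 2.

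For the 6 keratin genes that reached 1 CPM in a group, the genes with the most alike pattern over the 9 libraries were found among 11639 genes, by the root mean square difference of centred log2(CPM + 0.5). For Krt7 they were the claudin genes Cldn4 and Cldn3, each at 1.09, and Epcam at 1.13. For Krt8 they were Alad (0.06), Tmsb10 (0.07) and Apol9a (0.07), and for Krt18 Pctp (0.06), Pcyt2 (0.07) and H6pd (0.08). For Krt80 they were Eml2 (0.07), Arhgef1 (0.08) and Lpcat1 (0.10). For Krt16 they were Ptprg (0.13), Tmem154 (0.13) and C1ra (0.14), and for Krt14 they included Tnr (0.34) and Gsdmd (0.36). Large distances for Krt7 go with its large range. Among the 6 keratin genes, Krt18 and Krt80 stood 0.31 apart, Krt8 and Krt80 0.35, Krt14 and Krt16 1.80, and Krt7 4.06 to 7.38 from the others.

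The genes lie in the keratin clusters of mouse chromosomes 11 and 15 (GRCm38.p6, RefSeq). Krt15 is at chr11:100131759-100135949, Krt19 at chr11:100140810-100145926, Krt14 at chr11:100203162-100207510, Krt16 at chr11:100246091-100248902 and Krt17 at chr11:100256215-100261029. Krt80 is at chr15:101348315-101370162, Krt7 at chr15:101412403-101427806, Krt5 at chr15:101707069-101712905, Krt8 at chr15:101996711-102004342 and Krt18 at chr15:102028216-102032026, on the chromosome that also carries Sox10. The chromosome 15 cluster held keratin genes called in both directions: in clone 1 Krt80, Krt7, Krt8 and Krt18 fell, and Krt5, which lies between Krt7 and Krt8, rose, a call lost without control replicate 3 or clone 1 replicate 3.

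The nearest tested genes outside the clusters, 10 on each side, were counted in the same fit. Around the chromosome 11 cluster, 2 of 20 rose and 13 fell in clone 1 (median log2 fold change -0.28, beside 0.03 over 1151 genes of the chromosome), and 1 rose and 14 fell in clone 2 (median -0.37, beside -0.00). Around the chromosome 15 cluster, 13 rose and 3 fell in clone 1 (median 0.47, beside 0.29 over 581 genes of the chromosome), and 13 rose and 4 fell in clone 2 (median 0.52, beside 0.25). Eif4b, the tested gene next to Krt18 outside the cluster, had log2 fold changes of -0.06 (adjusted p = 0.335) and -0.14 (adjusted p = 0.0343). Atg101, next to Krt80, had 0.04 (adjusted p = 0.55) and -0.04 (adjusted p = 0.586). Of the single neighbours, 2 were picked after their values were seen: Tns4 beside the chromosome 11 cluster, at -8.49 and -9.12, and Jup (plakoglobin), at -1.58 and -1.67.

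**Figure D4:**
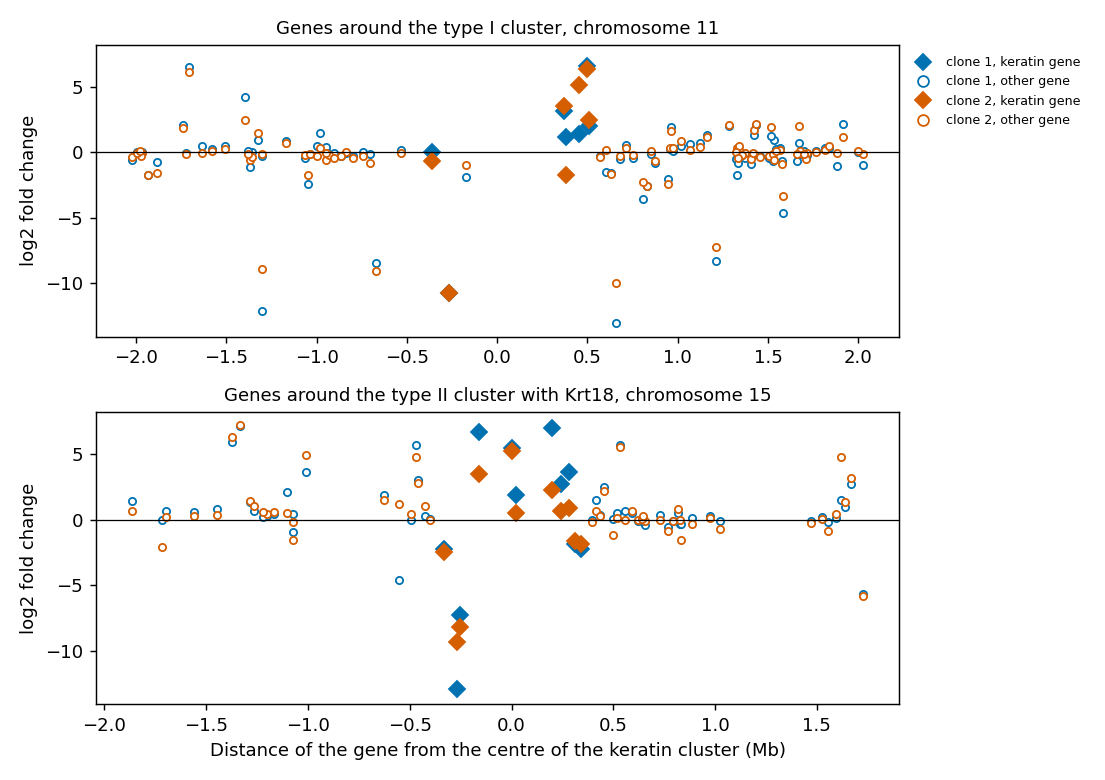
Log2 fold change of every tested gene within about 2 Mb of the centre of each keratin cluster, in clone 1 and clone 2 against the control, by distance from the centre, with filled diamonds for keratin genes and open circles for other genes. Around chromosome 15 the keratin genes spread from -12.92 to 7.02 in clone 1 while the 20 nearest other genes have a median of 0.47, and points for genes at 0 counts in a group are fitted values and no bounds.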

How the data were processed

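Gene counts were deposited by the authors as whole numbers, 1 column per library, with no normalization. Per the submitters' processing notes, fastp, Subread and DESeq2 were used with mm10 and GRCm38. Versions, settings, annotation and the strand setting of counting are not stated in the labels or files. Of the counts from 1 to 10, 74.7% were even, so both reads of a pair may have been counted, and counting intervals (95%, exact binomial) were computed on halved sums. The 24 genes without a symbol held at most 0.202% of a library.

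Counts were fitted in R 4.3.3 with edgeR 4.0.16 (TMM scaling, filterByExpr with a minimum count of 10, quasi-likelihood test, 1 factor of 3 groups over all 9 libraries), with a threshold of 0.05 on p adjusted by Benjamini and Hochberg's method. Standard errors were taken as the absolute log2 fold change divided by the root of F. Alternatives were DESeq2 1.42.0, other scalings and filters, 2-group fits, a replicate block, halved counts (chosen after seeing the data) and leaving out libraries. The script was tested on simulated data. Same-numbered libraries deviated together in all 9 pairs (r = 0.114 to 0.501), by the data and not by the labels. Only replicate 1 stood apart: its pairs had r = 0.477 to 0.501, and -0.423 to -0.162 with other numbers, while numbers 2 and 3 correlated with each other as well (0.046 to 0.292). The block value is printed where it changes a call. Levels are TMM-scaled CPM, mean ± SD. Transcript lengths come from GENCODE vM21 and promoters from RefSeq.

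The genes and lists were chosen with earlier results of these data known. Named were the 10 genes, up to 4 genes per list called in both clones with the largest mean change and 1 CPM in a group, and the 3 genes most like each keratin gene. A few genes chosen this way are counted but not named in the text.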

Additional observations from a re-analysis of the deposited data

Results flagged for a closer look

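For 7 of the 9 tested keratin genes, the change against the control differed between the clones by the test of clone 2 against clone 1 (edgeR's quasi-likelihood test, adjusted p under 0.05), in a comparison where 57.6% of all tested genes differed. The difference, as the log2 fold change of clone 2 over clone 1, was 3.54 for Krt7, 3.75 for Krt14, 0.42 for Krt18 and 0.24 for Krt8, and -2.92 for Krt15, -0.24 for Krt16 and -0.23 for Krt80. For Krt7, Krt8 and Krt18 this was a smaller fall in clone 2, for Krt80 a deeper one, for Krt14 a larger rise, for Krt16 a smaller one, and for Krt15 a change of direction.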

How the results depend on the processing

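Under 18 alternative fits, 439 of 465 values of the tested keratin genes kept their direction and side of the threshold, 22 lost a call, 4 gained one and 0 reversed. Without 1 library, the keratin genes called numbered 7 to 9 in clone 1, 7 to 8 in clone 2 and 6 to 7 between the clones, and all genes called 10129 to 10843, 9886 to 10544 and 7030 to 8556. Without the replicate 1 libraries of all groups they numbered 8, 7 and 8, and 11202, 10971 and 8892. Differences without 1 library are given for clone 1 minus control, clone 2 minus control and clone 2 minus clone 1, in that order. The difference in the log2 ratio of Krt18 to Krt8 ran from -0.44 to -0.392, from -0.264 to -0.216 and from 0.159 to 0.189. The difference in the share of Krt8 and Krt18 ran from 40.2 to 40.9, from 33.8 to 34.5 and from -6.48 to -6.27 percentage points.

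That difference in share depended on the length used: per kilobase of all annotated exons, the difference from the control was 13.0 points in clone 1 and 6.57 in clone 2, against 40.5 and 34.2 on counts. With the replicate block, Krt17 in clone 1 lost its call (1.92, adjusted p = 0.06), Krt5 between the clones gained one (-1.35, adjusted p = 0.0491), and no other call of these genes changed. Other lost calls of Krt17 in clone 1 were under upper quartile scaling (1.90), with no filter (1.97) and without 1 library, which was control replicate 1 (1.45), control replicate 2 (1.97), clone 1 replicate 1 (1.68), clone 1 replicate 2 (1.90) or clone 2 replicate 1 (1.96). The cause was not tested. The stricter filter left Krt5, Krt15 and Krt17 untested, halved counts left Krt5 and Krt17 untested, and fits of only 2 groups left Krt17 untested against the control in both clones and Krt5 in clone 2. Depth limits Krt19, Krt17, Krt5 and Krt15, which had at most 60 counts in a library. The planned comparison of keratin proteins was not run.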
